A study of Mus musculus with 11 samples.

Results

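The genes described here are 10 members of the Bmp pathway: the ligands Bmp2, Bmp4, Bmp6 and Bmp7, the secreted antagonists Grem1 and Fst, and the target genes Id1, Id2, Id3 and Id4. They were taken by name, through the RefSeq accession that the array gives each probe, which found 11 of the array's 55681 probes, 2 for Bmp4 and 1 for each of the other genes, and makes them 10 of the 20284 genes that could be named in this way. All 10 genes had a probe among the 47997 that passed the filter on dim probes, and for Bmp4 the brighter probe was the main one. Cy3-labelled RNA was hybridized to 11 single-colour arrays on 2 slides. Cochlear sensory epithelium (CSE), the strip of the inner ear that holds hair cells and supporting cells, came from ICR mice aged 1 day, with 20 cochleae pooled in a preparation (3 arrays). Otospheres (OS) are floating spheres grown from dissociated CSE of such mice in serum-free medium with 10 ng/ml of bFGF and 50 ng/ml of IGF1, cultured for 4 to 5 days, passaged 1 time and cultured for 4 to 5 days more (6 arrays). Mouse embryonic stem cells (ESCs) of the lines G4-2 (array ES1) and D3 (array ES2) were kept without feeder cells at passage 13 in 10% serum with 1000 U/ml of LIF. Each line is 1 array, so the 2 ESC arrays differ in line as well as in slide. OS1 and OS2 differed by 1.09 times the noise between spots of a probe, and OS4 and OS5 by 0.474 times, against 1.95 to 5.54 times for the other pairs within a group. Each of these pairs was therefore counted as 1 sample, leaving 4 otosphere samples (OS1-2, OS3, OS4-5 and OS6), 3 CSE samples and 2 ESC samples.

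Bone morphogenetic proteins (Bmps) are secreted ligands of the TGF-beta superfamily that bind pairs of type I and type II receptor kinases, which phosphorylate Smad1, Smad5 and Smad9. Extracellular antagonists such as gremlin (Grem1) and follistatin (Fst) bind the ligands and keep them from their receptors, and follistatin also binds activins. The Id genes are immediate targets of the phosphorylated Smads. Their products lack a DNA-binding domain and hold E proteins away from proneural bHLH factors such as Atoh1, the factor that specifies hair cells. In the cochlea Bmp4 is made at the edge of the developing sensory domain. In mouse ESCs serum or Bmp4, acting through Id genes, is known to sustain self-renewal together with LIF.

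The promoters are shown first for the Id genes that separated in the comparison of otospheres with CSE (Id2 and Id3 against Id4) and for the ligands that went opposite ways in it (Bmp4 and Bmp6). RefSeq promoter windows (GRCm38.p6) matched 6 of the 10 members. The 250 bases before each start are printed 5′ to 3′ on the gene's strand. Capitals mark the letters GGCGCC, the core of the GC-rich Smad1/5 element described in Id promoters, and CAGAC, which holds the Smad4 box and reads GTCTG on the other strand. TATAAA, the TATA box, was searched on both strands as well and was found in none of the 6 windows.
Id2, chr12:25096093-25096342, minus strand: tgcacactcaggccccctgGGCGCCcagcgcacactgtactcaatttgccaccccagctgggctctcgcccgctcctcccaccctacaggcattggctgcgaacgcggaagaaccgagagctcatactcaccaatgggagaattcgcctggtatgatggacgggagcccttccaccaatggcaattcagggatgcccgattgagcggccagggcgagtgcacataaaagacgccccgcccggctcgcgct
Id3, chr4:136143572-136143821, plus strand: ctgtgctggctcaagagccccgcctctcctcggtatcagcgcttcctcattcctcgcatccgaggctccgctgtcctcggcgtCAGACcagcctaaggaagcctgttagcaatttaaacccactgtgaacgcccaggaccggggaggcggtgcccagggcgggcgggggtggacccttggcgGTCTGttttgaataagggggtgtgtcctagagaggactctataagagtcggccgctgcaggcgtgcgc
Id4, chr13:48260866-48261115, plus strand: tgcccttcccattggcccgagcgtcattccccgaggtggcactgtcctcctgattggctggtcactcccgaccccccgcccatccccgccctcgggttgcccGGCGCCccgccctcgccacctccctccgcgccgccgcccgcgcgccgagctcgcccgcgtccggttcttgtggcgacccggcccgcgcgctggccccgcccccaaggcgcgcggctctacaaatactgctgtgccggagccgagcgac
Bmp4, chr14:46390670-46390919, minus strand: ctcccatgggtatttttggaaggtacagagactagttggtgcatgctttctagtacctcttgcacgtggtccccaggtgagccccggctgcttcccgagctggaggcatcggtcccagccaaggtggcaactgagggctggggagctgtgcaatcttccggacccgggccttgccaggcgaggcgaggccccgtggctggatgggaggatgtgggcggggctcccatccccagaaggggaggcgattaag
Bmp6, chr13:38345466-38345715, plus strand: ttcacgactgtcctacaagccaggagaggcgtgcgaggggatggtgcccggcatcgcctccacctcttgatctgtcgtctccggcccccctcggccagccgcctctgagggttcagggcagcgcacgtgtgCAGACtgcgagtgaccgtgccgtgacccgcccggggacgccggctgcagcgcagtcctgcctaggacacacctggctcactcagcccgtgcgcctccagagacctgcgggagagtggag
GGCGCC, which reads the same on both strands, stood once in the windows of Id2, Id4 and Grem1, and not in those of Id3, Bmp4 and Bmp6. Of all 32851 RefSeq windows of that length, 9.59% held it. CAGAC stood 2 times in Id3, once on each strand, and once in Bmp6 and in Grem1, against 42.2% of all windows with at least 1 copy. No motif overlapped another, and 12.4% of all windows held TATAAA. The Id4 window had the highest GC content of the 6, at 75.6%, against 62.8% for both Id2 and Id3 and a median of 52.4% over all windows. These matches are a description of the letters in 1 window per gene.

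The groups were compared by marker genes of cell types. Of 9 pluripotency genes, 8 were lower in otospheres and in CSE than in ESCs. The other was Nanog, whose only probe matched by accession was 1.44 (log2) higher in otospheres (limma adjusted p = 0.105). The paper, however, lists Nanog among the genes high only in ESCs and did not detect its protein in otospheres. This probe is therefore not read as the level of Nanog. Of 11 hair cell genes, 6 were lower in otospheres than in CSE and none was higher, and of 8 supporting cell genes 7 were lower. The same comparison found lower signals for 5 of 6 neuronal genes, 4 of 7 endothelial, 4 of 6 macrophage, 4 of 6 erythroid, 3 of 7 glial and 1 of 11 mesenchymal genes. By its main probe 1 glial gene, Mbp, was higher, averaging 13.19 in otospheres and 11.29 in CSE. The Mbp probe A_55_P1992160 went the same way (9.22 against 6.83), and A_52_P329451 went the other way (7.34 against 8.59). Of 7 primitive endoderm genes 1 was higher and 1 was lower, and none of 3 early mesoderm genes passed the limma test (1 at an unadjusted p under 0.05). Over all probes, 6.19% were called lower and 4.84% higher in otospheres than in CSE. The share called lower than in ESCs was 15.6% in otospheres and 15.6% in CSE. The mean signal of the endothelial list was 6.75 to 7.74 (log2) in otospheres and 9.52 to 10.15 in CSE, and that of the neuronal list was 7.13 to 8.22 against 11.73 to 12.94. The supporting cell list averaged 8.74 to 9.05 in otospheres and 11.59 to 11.93 in CSE. In bulk RNA, fewer cells of a type and less RNA per cell cannot be told apart, and the part of these cell types in the differences below was not tested.

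Otospheres were compared with the epithelium they were grown from to ask which Bmp genes changed in culture. Of the 10 members, 4 were lower in otospheres (Bmp4, Id1, Id2 and Id3) and 1 was higher (Bmp6). Over all 47997 probes tested, 6.19% were called lower and 4.84% higher in this comparison (limma, Benjamini-Hochberg adjusted p under 0.05). The median difference of all probes was 0.02 on the log2 scale.

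**Figure D1:**
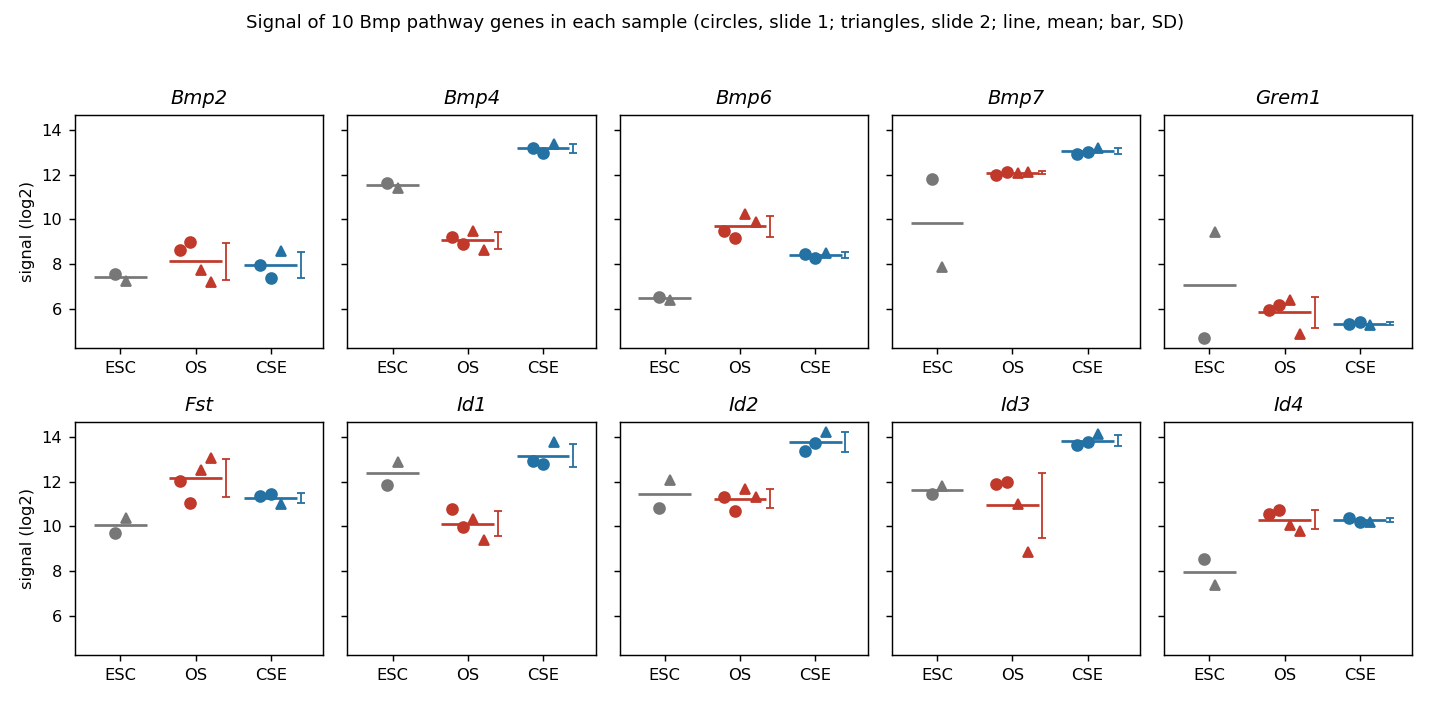
Signal (log2) of the main probe of each gene in the 2 ESC, 4 otosphere and 3 CSE samples. Circles are samples on slide 1 and triangles on slide 2, horizontal lines are group means and error bars the SD (not drawn for the 2 ESC lines). Bmp4, Bmp7 and Id1 to Id3 sit lower in every otosphere sample than in every CSE sample, and Bmp7 and Grem1 split the 2 ESC lines.

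Among the ligands, Bmp4 showed the widest gap. Its main probe (A_55_P2154387) read 9.24, 8.91, 9.50 and 8.64 in OS1-2, OS3, OS4-5 and OS6, and 13.21, 12.98 and 13.35 in CSE1, CSE2 and CSE3 (log2). No otosphere sample came near the CSE samples. The difference was -4.11 ± 0.22 (SE), or 17.2-fold lower (limma adjusted p = 3.19e-05), with values of -4.02 within slide 1 and -4.28 within slide 2. The other Bmp4 probe (A_55_P1959022) stayed at the level of the background on every array of both groups, so it gives no fold between them.

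Bmp6, a ligand of the same subfamily as Bmp7 that is best known from iron balance and cartilage, moved the other way. It read 9.48, 9.18, 10.25 and 9.89 in the otosphere samples and 8.47, 8.29 and 8.51 in CSE. Every otosphere sample was above every CSE sample, and the 2 otosphere samples of slide 2 were the highest. The difference was 1.28 ± 0.25, or 2.42-fold (adjusted p = 0.0118), with 0.95 within slide 1 and 1.57 within slide 2.

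Bmp7, a ligand needed for kidney and eye development, was abundant in both groups. It read 11.98, 12.12, 12.07 and 12.14 in otospheres (SD 0.07, n = 4) and 12.94, 13.01 and 13.21 in CSE (SD 0.14, n = 3), and the groups did not overlap. The difference of -0.97 ± 0.73 was not called (adjusted p = 0.549, 95% interval -2.63 to 0.69), because the fit shares 1 spread over the 3 groups and the ESC lines differed widely. Without ES1 or without ES2, which leaves 1 ESC sample and so no spread within that group, the same difference had an SE of 0.14 and an adjusted p of 0.00377. The difference was -0.92 within slide 1 and -1.10 within slide 2.

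Bmp2 read 8.63, 9.01, 7.73 and 7.20 in otospheres and 7.96, 7.40 and 8.59 in CSE, which overlapped. The difference of 0.16 ± 0.45 was not called (adjusted p = 0.92, interval -0.86 to 1.18). It was 1.14 within slide 1 and -1.12 within slide 2, so its sign turned with the slide.

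Neither antagonist was called by limma, or had an unadjusted p under 0.05. Fst read 12.01, 11.05, 12.52 and 13.05 in otospheres and 11.34, 11.44 and 11.01 in CSE, a difference of 0.89 ± 0.43 (adjusted p = 0.268, interval -0.07 to 1.86). OS3 lay within the range of the CSE samples and the other otosphere samples were above it. The difference was 0.14 within slide 1 and 1.78 within slide 2. It was 1.26 ± 0.30 without OS3 (adjusted p = 0.0354) and 0.60 ± 0.38 without OS6 (adjusted p = 0.489). Grem1 was dim in both groups, at 5.95, 6.17, 6.42 and 4.87 in otospheres and 5.32, 5.43 and 5.29 in CSE. Its probe was well above background on 5 of 6 otosphere arrays, OS6 being the exception, and on 1 of 3 CSE arrays. The difference was 0.51 ± 0.92 (adjusted p = 0.862, interval -1.58 to 2.60).

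Of the Id genes, Id1 to Id3 were lower in otospheres and Id4 was not. Id1, the member whose promoter holds the best-studied Bmp response element, read 10.77, 9.99, 10.31 and 9.41 in otospheres and 12.92, 12.79 and 13.77 in CSE. The ranges were far apart, and the difference was -3.04 ± 0.39, or 8.23-fold lower (adjusted p = 0.00161). It was -2.48 within slide 1 and -3.91 within slide 2.

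Id2 read 11.32, 10.67, 11.66 and 11.33 in otospheres and 13.34, 13.73 and 14.20 in CSE, a difference of -2.51 ± 0.36, or 5.71-fold lower (adjusted p = 0.00258). It was -2.55 within slide 1 and -2.70 within slide 2. The otosphere samples lay close together (SD 0.42, n = 4) and below every CSE sample.

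Id3 read 11.90, 11.96, 10.99 and 8.87 in otospheres and 13.63, 13.75 and 14.10 in CSE. The groups did not overlap, but the otosphere samples were widely spread (SD 1.44, n = 4, against 0.24 for CSE, n = 3), with OS6 lowest. The difference was -2.90 ± 0.67, or 7.45-fold lower (adjusted p = 0.0248), with -1.76 within slide 1 and -4.17 within slide 2. The call was lost without OS4-5 (adjusted p = 0.0622) or without any 1 CSE sample (0.0782, 0.0669 and 0.0969 without CSE1, CSE2 and CSE3). In OS6 the mean of the mesenchymal marker list was lowest as well. It was 8.20, against 11.60 in OS1-2, 12.23 in OS3, 10.44 in OS4-5 and 12.07 to 12.57 in CSE. Lum and Dcn of that list were not lowest in OS6. Lum read 15.05 there and 14.39 in OS3, and Dcn 15.51 there and 15.31 in OS4-5. The part of these markers in the Id3 values was not tested.

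Id4, the member best known from neural progenitors, read 10.56, 10.72, 10.06 and 9.81 in otospheres and 10.36, 10.20 and 10.21 in CSE. The CSE samples lay inside the range of the otospheres. The difference was 0.03 ± 0.31 (adjusted p = 0.983), with an interval of -0.68 to 0.74, and it was 0.36 within slide 1 and -0.28 within slide 2.

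**Figure D2:**
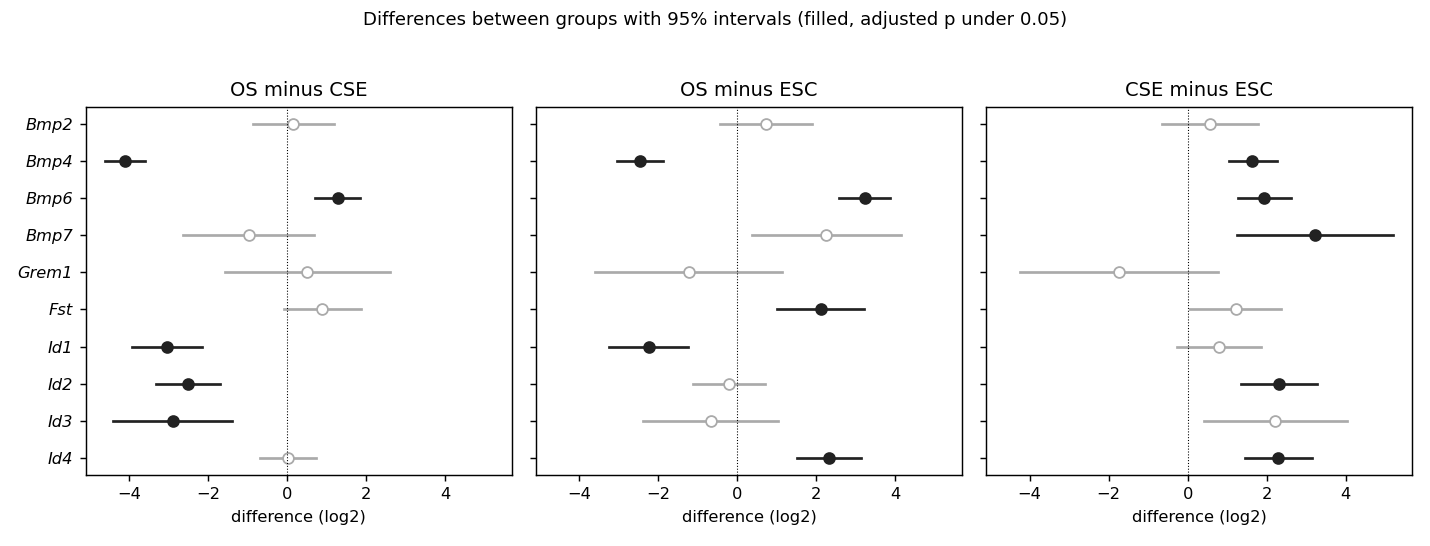
Differences (log2) between each pair of groups for the 10 genes, with 95% intervals from the limma fit. Filled dark points have an adjusted p under 0.05: Bmp4, Bmp6 and Id1 to Id3 in OS minus CSE, with Bmp4 the farthest from 0 at -4.11.

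Otospheres and CSE were each set against the ESCs, a comparison in which the same ESC samples serve both times. Of the 10 members, 3 were higher in otospheres than in ESCs (Bmp6, Fst and Id4) and 2 were lower (Bmp4 and Id1), where 12.1% of all probes were called higher and 15.6% lower. In CSE 5 members were higher than in ESCs (Bmp4, Bmp6, Bmp7, Id2 and Id4) and none was lower, against 13.2% and 15.6% of all probes by limma. At an unadjusted limma p under 0.05 the counts of members were 6 for otospheres and 7 for CSE. The share of all probes at that looser threshold was not counted, so these counts cannot be set against the shares above.

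By its main probe Bmp4 had the order CSE, ESCs, otospheres. ESCs read 11.65 (ES1) and 11.42 (ES2), which was 2.47 ± 0.25 above otospheres (adjusted p = 0.000171) and 1.64 ± 0.27 below CSE (adjusted p = 0.00181). The step between CSE and ESCs was not called with the processed signal scaled to the 75th percentile (0.97, adjusted p = 0.116) or with the mean of both Bmp4 probes (0.27, adjusted p = 0.506). The dimmer Bmp4 probe read 6.76 in ES1, the only array on which it was well above background, and 5.48 in ES2. Limma called this probe lower in CSE than in ESCs (-1.1, adjusted p = 0.0389), opposite to the main probe, and lower in otospheres than in ESCs (-1.34, adjusted p = 0.0132). Its signal rests on 1 array, so it ranks no groups.

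Bmp6 was dim in both ESC lines, at 6.54 and 6.42, and had the order otospheres, CSE, ESCs. It was 3.22 ± 0.28 higher in otospheres (9.32-fold, adjusted p = 7.2e-05) and 1.94 ± 0.30 higher in CSE (3.85-fold, adjusted p = 0.0013). All 3 steps in this order passed the test.

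Id4 read 8.55 and 7.39 in ESCs, below every otosphere and CSE sample. It was 2.32 ± 0.35 higher in otospheres (adjusted p = 0.00132) and 2.29 ± 0.37 higher in CSE (adjusted p = 0.00185). Id1 read 11.85 (ES1) and 12.86 (ES2) in ESCs, above every otosphere sample, and ES1 was below every CSE sample. The ESC mean was 2.24 ± 0.44 above otospheres (limma adjusted p = 0.00505). The difference between CSE and ESCs was 0.80 ± 0.47 (adjusted p = 0.251, interval -0.26 to 1.86).

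Neither Id2 nor Id3 was called between otospheres and ESCs. Id2 read 10.82 and 12.08 in ESCs, and the otospheres differed by -0.20 ± 0.40 (adjusted p = 0.762, interval -1.12 to 0.71). CSE was 2.31 ± 0.43 above the ESCs (adjusted p = 0.00353). Id3 read 11.42 and 11.80 in ESCs, from which otospheres differed by -0.68 ± 0.75 (adjusted p = 0.568, interval -2.39 to 1.04) and CSE by 2.22 ± 0.80 (adjusted p = 0.0683). Every CSE sample was above both ESC lines for Id3, and without OS6, the sample that widened the shared spread, the adjusted p was 0.00169.

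Fst, whose product binds activin more tightly than Bmps, read 9.71 and 10.38 in ESCs. Otospheres were 2.11 ± 0.48 higher (4.32-fold, adjusted p = 0.0106), and the call was lost without ES1 (1.78, adjusted p = 0.0843). CSE was 1.22 ± 0.51 higher, which was not called (adjusted p = 0.113). Bmp2 was near the ESC level of 7.57 and 7.26 in both, with differences of 0.73 ± 0.51 for otospheres (adjusted p = 0.343) and 0.57 ± 0.54 for CSE (adjusted p = 0.496).

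For Bmp7 and Grem1 a mean of the ESC lines has little meaning, because the lines lay on either side of it. Bmp7 was 2.25 ± 0.83 higher in otospheres than in the ESC mean (adjusted p = 0.0775) and 3.22 ± 0.87 higher in CSE (adjusted p = 0.0227). Against ES2 alone the otospheres were 4.22 higher (adjusted p = 1.43e-05), and against ES1 alone 0.27 (adjusted p = 0.402). CSE was 5.19 higher than ES2 alone (adjusted p = 7.6e-06) and 1.25 higher than ES1 alone (adjusted p = 0.00381). The CSE call was lost without CSE1, CSE2 or CSE3 (adjusted p = 0.0552, 0.0512 and 0.0619). Grem1 differed by -1.23 ± 1.04 between otospheres and ESCs (adjusted p = 0.441) and by -1.74 ± 1.10 between CSE and ESCs (adjusted p = 0.291). Against ES2 alone these differences were -3.59 and -4.10. The Grem1 probe was well above background on 5 of 6 otosphere arrays and 1 of 3 CSE arrays, so the sizes depend on the background level. In ES1 the probe was not well above background, so no direction is given against that line. Each of these single-array fits takes the lone ESC array to vary like the other groups.

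The 2 ESC lines, 1 array each, were then set side by side as values, with no test. Of the 10 members 5 differed by more than 2-fold, 3 of them higher in ES2 (Grem1, Id1 and Id2) and 2 lower (Bmp7 and Id4). Of all probes, 7.53% were more than 2-fold higher in ES2 and 6.73% more than 2-fold lower. Grem1 read 4.73 in ES1, where it was not well above background, and 9.44 in ES2, which puts ES2 at least 18.4-fold higher. The measured difference, 4.72 on the log2 scale, ran from 3.59 with an offset of 50 to 6.05 with an offset of 0 and 7.52 with the processed signal. The difference of Grem1 between the slides was -0.42 in otospheres and -0.09 in CSE. Bmp7 read 11.80 in ES1 and 7.86 in ES2, or 15.4-fold lower in ES2, while its difference between slides was 0.06 in otospheres and 0.24 in CSE.

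**Figure D3:**
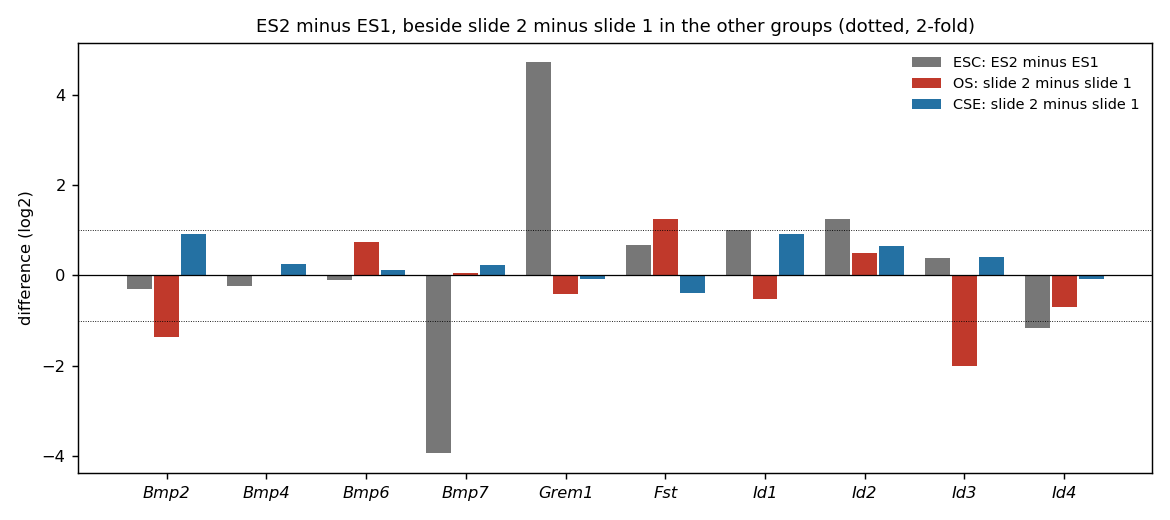
Difference (log2) of ES2 minus ES1 for each gene (grey), beside slide 2 minus slide 1 in otospheres (red) and CSE (blue). Bars start at 0 and dotted lines mark 2-fold. Grem1 (drawn at 4.72, with ES1 not well above background) and Bmp7 (-3.94) have the longest bars, and their slide differences in otospheres and CSE lie between -0.42 and 0.24.

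The Id genes differed less between the lines. Id1 was 2.02-fold and Id2 2.40-fold higher in ES2, and Id4 was 2.24-fold lower, while Id3 differed by 0.38 on the log2 scale. Slide 2 minus slide 1 was -0.52 in otospheres and 0.92 in CSE for Id1, 0.50 and 0.66 for Id2, and -0.71 and -0.07 for Id4. With 1 array of each line, line and slide cannot be told apart. Bmp4, Bmp6 and Bmp2 differed by -0.23, -0.11 and -0.30, and Fst by 0.67. Other markers also differed between the arrays. The primitive endoderm list averaged 7.56 in ES1 and 9.08 in ES2, led by Foxa2 at 5.88 and 8.98. Of the pluripotency list Zfp42 (Rex1) was 12.9-fold higher in ES2, and no other gene of that list passed 2-fold. Esrrb, for one, differed by -0.72, and the list averaged 12.89 in ES1 and 13.24 in ES2. The part of these markers in the differences of the Bmp genes was not tested.

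Other genes of the pathway, from lists of 59 genes of which 56 had a probe past the filter, were counted in the same fits. In otospheres against CSE 3 were higher and 7 were lower, with a median difference of -0.18. Of all probes, 4.84% were called higher and 6.19% lower in this comparison. Against ESCs 18 were higher and 4 lower in otospheres, and 20 higher and 4 lower in CSE, with medians of 0.38 and 0.61 and medians of all probes of -0.03 and -0.06. The shares of all probes called higher and lower were 12.1% and 15.6% in otospheres, and 13.2% and 15.6% in CSE. These shares also stand beside the counts for each list below.

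**Figure D4:**
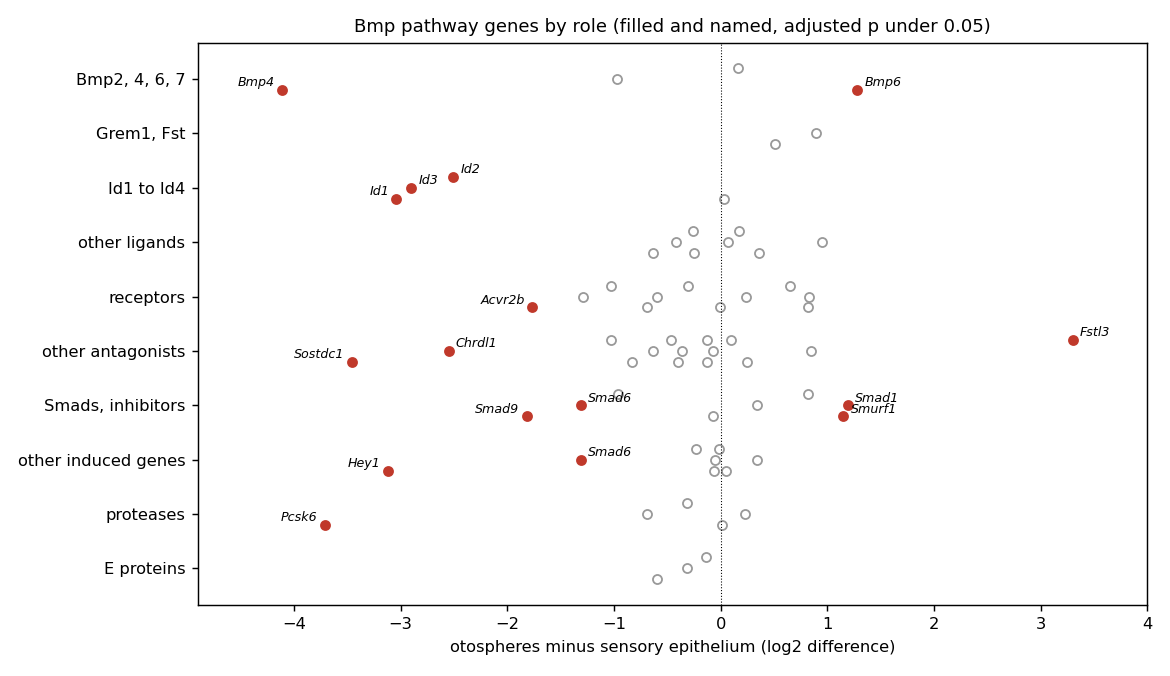
Log2 difference of otospheres minus CSE for the 10 members and the other genes of the pathway, 1 point a gene, by role (Smad6 and Smad7 appear in both of their lists). Filled and named points have an adjusted p under 0.05. Most other genes lie between -1 and 1, and Fstl3 (3.30), Pcsk6 (-3.71) and Sostdc1 (-3.46) are the farthest from 0 among them.

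None of 8 other Bmp and Gdf ligands was called by limma between otospheres and CSE (median -0.09, range -0.63 to 0.95), and 1 had an unadjusted p under 0.05. Bmp5 read 7.79, 7.61, 7.12 and 5.77 in otospheres and 7.63, 7.34 and 6.98 in CSE, and was not well above background in either ESC line. It was at least 3.22-fold above the ESCs in otospheres (adjusted p = 0.00966) and at least 3.83-fold above them in CSE (adjusted p = 0.00736). Gdf5, a joint morphogen, was 1.47 ± 0.47 lower in otospheres than in ESCs (adjusted p = 0.0474). In CSE Bmp8b, a ligand of germ cell formation, was 1.82 ± 0.33 lower than in ESCs (adjusted p = 0.00333) and Gdf6 was at least 1.78-fold higher (adjusted p = 0.0308).

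Of 11 receptors and co-receptors, Acvr2b, an activin type II receptor that also binds Bmps, was the 1 called between otospheres and CSE, at 1.77 ± 0.25 lower in otospheres (limma adjusted p = 0.00274), and none was called higher, with 3 higher at an unadjusted p under 0.05. Against ESCs 5 were higher and 2 lower in otospheres, and 4 higher and 1 lower in CSE. The type II receptor Bmpr2 was higher than in ESCs by 3.11 ± 0.28 in otospheres (adjusted p = 7.86e-05) and by 2.27 ± 0.29 in CSE (adjusted p = 0.000518). The type I receptor Acvr1 was higher by 2.55 ± 0.29 (adjusted p = 0.000277) and by 1.73 ± 0.30 (adjusted p = 0.00272). Acvr2b was lower than in ESCs in otospheres, by 2.38 ± 0.29 (adjusted p = 0.000396).

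Of 15 other extracellular antagonists, 1 was higher in otospheres than in CSE and 2 were lower. Fstl3, a follistatin-like binder of activins and Bmps, read 10.20, 10.33, 11.29 and 11.70 in otospheres and 7.60, 7.51 and 7.62 in CSE, a difference of 3.30 ± 0.37 (9.84-fold, adjusted p = 0.000863). Sostdc1 (wise), which binds Bmps and Wnt co-receptors, read 7.43, 6.26, 8.47 and 8.87 in otospheres and 11.69, 10.95 and 10.99 in CSE, a difference of -3.46 ± 0.56 (adjusted p = 0.00482). Chrdl1 (ventroptin) was 2.55 ± 0.23 lower (adjusted p = 0.000284). The groups did not overlap for any of these. The classical antagonists Nog and Chrd gave differences of -0.13 ± 0.41 (adjusted p = 0.933) and 0.25 ± 0.17 (adjusted p = 0.468). Against ESCs 6 antagonists were higher in otospheres and 5 in CSE and none was lower, among them Nbl1 (Dan), by 4.10 ± 0.30 in otospheres (adjusted p = 2.93e-05) and 4.73 ± 0.32 in CSE (adjusted p = 1.95e-05). Sostdc1, not well above background in the ESCs, was at least 4.78-fold higher in otospheres (adjusted p = 0.0213) and at least 52.5-fold higher in CSE (adjusted p = 0.000292).

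Inside the cell, of 8 Smads and inhibitors 2 were higher in otospheres than in CSE and 2 were lower. The receptor Smads split: Smad1 was 1.19 ± 0.30 higher (adjusted p = 0.0389) and Smad9 1.82 ± 0.27 lower (adjusted p = 0.00335), and Smad5 differed by -0.96 ± 0.32 (adjusted p = 0.097). The inhibitory Smad6, itself induced by Bmp, was 1.31 ± 0.29 lower (adjusted p = 0.02). Smurf1, the ubiquitin ligase that degrades Smad1 and Smad5, was 1.15 ± 0.23 higher (adjusted p = 0.0142). Against ESCs 2 of the 8 were higher and 1 lower in otospheres, and 3 were higher and 2 lower in CSE. Smad6 was higher than in ESCs by 1.75 ± 0.33 in otospheres (adjusted p = 0.00377) and by 3.06 ± 0.34 in CSE (adjusted p = 0.000263), whereas Smad7 was lower by 1.28 ± 0.21 (adjusted p = 0.0021) and 1.61 ± 0.22 (adjusted p = 0.000801).

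Of 8 other genes induced by Bmp, 2 were lower in otospheres than in CSE, Hey1 by 3.12 ± 0.23 (adjusted p = 0.000125) and Smad6, and none was higher. Hey1, a target of Notch as well as of Bmp, read 9.66, 9.76, 9.93 and 9.03 in otospheres, 12.91, 12.54 and 12.69 in CSE and 8.89 and 8.64 in ESCs. Msx1, Msx2, Dlx5 and Atoh8 gave differences of 0.05, -0.02, -0.05 and -0.06 between otospheres and CSE, with adjusted p of 0.947, 0.992, 0.959 and 0.955. Against ESCs 2 of the 8 were higher and 1 lower in otospheres, and likewise in CSE.

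Of 5 proteases that process ligands or antagonists, Pcsk6 (PACE4), a convertase that cleaves Bmp precursors, was lower in otospheres. It read 10.27, 8.88, 10.84 and 11.01 in otospheres and 13.86, 13.84 and 14.18 in CSE, a difference of -3.71 ± 0.48 (adjusted p = 0.00165). Bmp1 is the tolloid protease that cleaves chordin and procollagens and is no Bmp ligand despite its name. By its main probe it was higher than in ESCs by 2.80 ± 0.45 in otospheres (adjusted p = 0.00166) and by 3.50 ± 0.47 in CSE (adjusted p = 0.00068). Another Bmp1 probe (A_55_P2006708) averaged 9.81 in ESCs, 10.12 in otospheres and 10.26 in CSE. The remaining probe (A_55_P2006698) averaged 8.8, 10.59 and 10.52. Furin was higher than in ESCs by 2.14 ± 0.27 (adjusted p = 0.000527) and 2.13 ± 0.29 (adjusted p = 0.000703). None of the 3 E proteins that Id products bind was called by limma between otospheres and CSE (range -0.60 to -0.14), nor had any an unadjusted p under 0.05. Tcf12 was higher than in ESCs by 1.37 ± 0.21 in otospheres (adjusted p = 0.00123) and by 1.70 ± 0.22 in CSE (adjusted p = 0.000527), and Tcf4 by 2.61 ± 0.76 in CSE (adjusted p = 0.0312).

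The genes whose signal followed each member most closely over the 9 samples were found by Pearson's r among 5519 named probes whose SD over the samples was at least 1. The samples share their groups, so a high r marks a like pattern over groups, and no test was made. For Bmp4 the closest were Emilin3 (r = 0.991), Zcchc12 (0.989) and Prx (0.989), all highest in CSE and lowest in otospheres. For Bmp6 they were Atp11a (0.995), Slc25a24 (0.994) and Camk2d (0.993), highest in otospheres and lowest in ESCs. Id4 was nearest to Arhgef40 (0.991), Zadh2 (0.990) and Tmed3 (0.986).

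The other Id genes each had different neighbours. Those of Id1 were Angptl4 (0.980), Bcl11a (0.967) and Trpa1 (0.962), those of Id2 were Lypd2 (0.971), Minar1 (0.969) and Bend5 (0.969), and those of Id3 were Thbs3 (0.975), Tmem151b (0.973) and Cacna1g (0.970). The Id3 neighbours were all lowest in OS6, as was Id3. Bmp7 was followed by Lrrc75a (0.979), Zbtb44 (0.971) and Obsl1 (0.961), each lowest in ES2. Grem1 was followed by Tff1 (0.942), Gbp2b (0.940) and Rex2 (0.938), each highest in ES2. Fst went with Pik3c2a (0.972), Acp7 (0.967) and Mcoln3 (0.966), and Bmp2 with Rgs8 (0.953), Bmp1 (0.947, by its probe A_55_P2006698) and Itih3 (0.937).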

How the data were processed

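RNA (50 or 100 ng of each sample) was labelled with Cy3 and hybridized to Agilent arrays. The deposited scanner files give, for each spot, a median intensity and that of the background around it, read with Feature Extraction 10.7.3.1 and not normalized between arrays, and a processed intensity from which the software had subtracted the background. The authors also deposited a table of 43657 probes as log2 values, background-corrected and quantile-normalized with limma. Median signals were 68 to 116 per array against backgrounds of 32 to 38, and 55.1% to 71.6% of spots were well above background. The number of arrays limits the precision.

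Here normexp (limma 3.58.1, R 4.3.3) with an offset of 16 corrected the median intensities for background, and their log2 values were quantile-normalized. Spots flagged as outliers were dropped and spots of a probe averaged. Probes were kept if 2 or more arrays showed them 10% or more above the 95th percentile of the 308 negative controls. Accessions gave names to 26762 probes. A limma fit with 1 mean per group over 9 samples gave each difference, with p-values adjusted over all 47997 kept probes by Benjamini-Hochberg and called under 0.05, and was tested on simulated data. The labels do not say whether samples of a group were independent preparations, so p-values measure only the spread between them. "At least" folds use, on each array, the lowest signal among probes well above background. Levels are compared within a probe only.

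Named besides the members were, per pathway list and comparison, up to 4 called genes with the largest difference, the 3 genes most like each member, and, chosen after their values were seen, Nog, Chrd, Smad5, Msx1, Msx2, Dlx5, Atoh8, Nanog, Mbp, Foxa2 and Zfp42. The members and the lists (7 of pathway genes, 11 of markers) were chosen with earlier results of these data known. Alternatives were the offset, the processed signal, the authors' table, the filter, every array as a sample, slide and replicate blocks, the mean of a gene's probes and leaving out each sample. Left unused were the saturation flags.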

Additional observations from a re-analysis of the deposited data

Results flagged for a closer look

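The dimmer Bmp4 probe (A_55_P1959022) read 5.05 in OS1-2 against 4.72, 4.66 and 4.70 in the other otosphere samples, a gap to the nearest of 0.837 of the whole range, past Dixon's limit for 4 samples. It was not well above background on any of the 6 otosphere arrays. Such a gap turns up by chance in about 1 of 20 groups, and none of the 10 main probes showed one in otospheres.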

How the results depend on the processing

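Over 550 refits of single member differences, 517 kept their direction and their side of the threshold, 13 fell short of it, 11 newly passed it and 9 changed sign. When 1 OS or CSE sample was left out, 4 to 6 of 10 members were called for OS against CSE. The counts were 5 for OS against ESCs and 4 to 6 for CSE against ESCs. Of 47997 probes, those fits called 1281 to 2629 higher and 1664 to 2719 lower for OS against CSE. For OS against ESCs they called 4665 to 5857 higher and 6305 to 7432 lower, and for CSE against ESCs 5021 to 6506 and 6021 to 7650. With the processed signal scaled to the 75th percentile, 3 members were called for CSE against ESCs in place of 5. Bmp4 (0.97, limma adjusted p = 0.116) and Bmp7 (2.83, adjusted p = 0.0737) were lost. Of all probes, that fit called 5707 higher and 8473 lower, against 6349 and 7493 in the main fit. That scaling also moved the median of all probes against ESCs to -0.28 for OS and -0.25 for CSE, and Id3 fell short in OS against CSE (adjusted p = 0.0569). With the mean of both Bmp4 probes, Bmp4 in CSE minus ESCs was 0.27 (adjusted p = 0.506). The cause was not tested.

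Sign changes touched differences that were not called. Within slide 2, Bmp2 and Id4 in OS minus CSE were -1.12 and -0.28, as values with no test. The others came from leaving out 1 sample. Over those fits, Bmp2 in OS minus CSE ran from -0.13 (without OS3 or CSE2, and 0 without OS1-2) to 0.47, and Id4 from -0.11 (without OS3, and -0.06 without OS1-2) to 0.19. In OS minus ESCs, Id2 ran from -0.83 to 0.43 (without ES2), Id3 from -1.02 to 0.01 (without OS6) and Grem1 from -3.59 to 1.13 (without ES2). Grem1 in CSE minus ESCs ran from -4.10 to 0.62 (without ES2). In ES1, the line left in those Grem1 fits without ES2, the probe was not well above background.

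OS and CSE arrays share the numbers 1 to 3. The deviations of same-numbered arrays correlated at 0.356, -0.341 and -0.393, and those of arrays with unlike numbers at -0.331 to 0.499. With 3 CSE arrays, and with OS3 and CSE3 on different slides, this check cannot settle whether the arrays are paired. With the replicate number as a block 5 members were called in OS against CSE, as in the main fit, with Bmp7 gained (-1.03, adjusted p = 0.0346) and Bmp6 lost (0.96, adjusted p = 0.0517). That fit left out the ESCs and took every array as a sample. The blocks of OS4, OS5 and OS6 hold no CSE array, so the difference rests on OS1 to OS3 against CSE1 to CSE3. Blocking and this change of arrays cannot be told apart. The block fit called 2027 probes higher and 2477 lower, against 3682 and 4276 with every array as a sample and 2321 and 2973 for the 9 samples. Without CSE1 these counts were 1281 and 1664, without CSE3 1377 and 1836, and without OS4-5 1412 and 2062. Slide as a block changed no call of a member. Where a probe was not well above background, as Grem1 in ES1, OS6 and 2 of 3 CSE arrays, its signal is too low to rank groups.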

Other observations

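Several other Bmp pathway genes varied among the otosphere samples more than among the CSE samples, with OS6 at an end of the range for the main probes of those named here. Eng (endoglin), a co-receptor found on endothelium and mesenchymal cells, read 9.47, 9.69, 8.59 and 6.41 in OS1-2, OS3, OS4-5 and OS6, against 9.72, 8.87 and 10.11 in CSE. Bmp1 read 13.53, 13.88, 12.67 and 12.19 by its main probe, whereas by the probe A_55_P2006708 its lowest sample was OS4-5 (9.59, against 9.92 in OS6). In the same samples the fibrillar collagen genes Col1a2 (15.17, 15.89, 13.30 and 8.61) and Col3a1 (13.96, 15.59, 11.82 and 6.51) were lowest in OS6, while Lum, another mesenchymal marker, was not (14.90, 14.39, 15.24 and 15.05). Fstl3 and Sostdc1 were highest in OS6, at 11.70 and 8.87. These genes were chosen after their values were seen, and the 4 samples were not tested against each other.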
